A study of Homo sapiens with 30 samples.

Results

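The 10 genes MYC, MAX, MXD1, MXI1, MXD3, MXD4, MNT, MGA, MLX and MLXIP, of 20090 protein-coding genes on the autosomes and chromosome X, were followed through chromatin immunoprecipitation sequencing (ChIP-seq) of MDA-MB-231 cells, a triple-negative breast cancer line. They were chosen by name as members of the MYC and MAX network, not by a rule on their values, but with earlier results of these data known. The study asked which chromatin is bound by SAP30, part of the SIN3 corepressor complex, and what its loss changes. Parental cells, which carry no knockout, gave 2 libraries each for SAP30 and for SIN3A and SIN3B, the scaffolds of the complex. Parental and SAP30-KO1 cells each gave 2 libraries for H3K4me3 and H3K9Ac, histone marks found at active promoters, and for RNA polymerase II (Pol II). SAP30-KO1 is a single CRISPR/Cas9 knockout line that was pooled from several single-cell clones, so a difference between the lines cannot be told apart from a difference between cell cultures. SAP30 was not profiled in the knockout libraries used here, so the loss of its binding was not checked.

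The network works through pairs of basic helix-loop-helix leucine zipper proteins that bind the E-box, CACGTG. MYC pairs with MAX and activates growth and ribosome biogenesis genes, whereas MXD1, MXI1, MXD3, MXD4 and MNT pair with MAX on the same element and repress. These repressors carry a short SIN3 interaction domain near the amino terminus through which they recruit SIN3A or SIN3B and histone deacetylases, so their genes encode proteins that bring to DNA the complex profiled here. MGA, a large MAX partner, works with a Polycomb complex, and MLX pairs with MLXIP (MondoA) to sense glucose-derived metabolites.

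Each library was available as a list of peak summits, 10861 to 54622 per list, with a score for each summit that is the −log10 of its q-value. Scores depend on depth, which is unknown, and on enrichment. A summit was therefore described by its rank within its own list, from 0% for the best score to 100% for the last. The rank of a gene was that of its best summit within 1000 bp of any of its start sites, and the ranks of different targets were not compared as amounts of protein. Promoters of mesenchymal genes that mark this line (VIM, ZEB1, CD44, AXL, FN1, SNAI2) had a Pol II summit in both parental libraries at 6 of 6 genes, against 2 of 7 luminal genes (EPCAM and KRT8), and ESR1, PGR, GATA3, FOXA1 and CDH1 had none. For H3K4me3 the presence differed less, with 6 of 6 mesenchymal and 6 of 7 luminal genes, at median ranks of 10.7% and 59.4%. Nothing in the labels states that the libraries of a group came from separate cultures, so the spread between them may be technical.

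The promoters of the network were occupied by SAP30 and SIN3 almost without exception. Of 180 pairs of a gene and a list, 176 had a promoter summit, and 7 of the 10 genes had one in all 18 lists, as did 28.6% of protein-coding genes. SAP30 had a promoter summit in both parental libraries at 9 of the 10 genes, against 61.2% of all genes. SIN3A did so at 9 genes against 31.5%, and SIN3B at 9 genes against 51.7%. All 3 proteins in both libraries of each were found at 7 genes, against 30.2% of all genes, and the exceptions were MNT, MGA and MLX. MNT lacked a SIN3B summit in replicate 2 because the nearest lay 1209 bp into the gene, just outside the window, at a rank of 4.80%. MGA lacked a SAP30 summit in replicate 1, with the nearest 1508 bp into the gene. MLX lacked SIN3A in replicate 2, where the nearest summit was 10592 bp away, and Pol II in replicate 2 of SAP30-KO1, where it was 5089 bp away. The median rank over the 9 genes with SAP30 in both libraries was 3.16%, against 17.1% over the 12294 genes of the whole annotation with SAP30 in both. All 9 ranked better than that gene median. The 10 genes all had promoter summits of Pol II, H3K4me3 and H3K9Ac in both parental libraries, against 57.7%, 63.8% and 61.4% of all genes. The shares of all genes include promoters without these marks, and presence was not compared among marked promoters alone.

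SAP30 ranked best at MXD3, MAX and MNT. MXD3, which encodes a MAX-binding repressor, stood at 0.309% and 0.434% in the libraries of replicates 1 and 2. MAX, the shared partner of the network, stood at 0.366% and 0.597%. MNT, the broadly expressed MAX-binding repressor, stood at 0.523% and 0.718%. By mean rank these were at positions 135, 184 and 236 of 12294 genes, within the best 2% of promoters, and the ranges of neighbours in this order overlapped while those of MXD3 and MNT did not. MXD1, another MAX-binding repressor, followed with 0.666% and 3.41%. MLXIP had 2.23% and 4.09%, and MYC had 3.94% in both libraries, the closest agreement of the 9 genes. MXI1 had 8.82% and 3.54%, MLX 9.67% and 10.6%, and MXD4 4.81% and 16.5%. MGA was the lowest, with a promoter summit at 23.3% in replicate 2 alone. MYC lay within the range of MLXIP and beyond that of MXD1. The range of MXD4 overlapped that of MXI1 and held that of MLX, while MXI1 and MLX did not overlap.

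**Figure D1:**
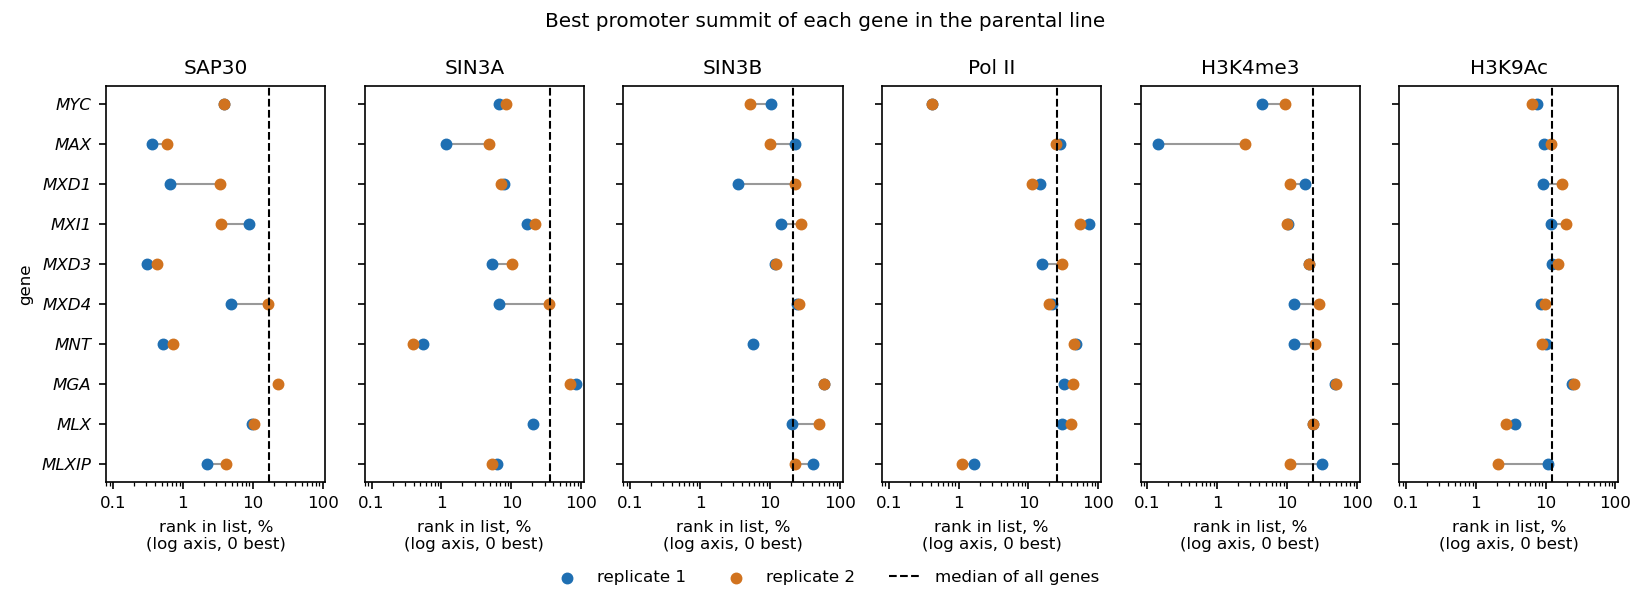
Rank of the best promoter summit of each gene in the parental libraries of 6 targets, in percent of the list on a log axis (0% best), with replicates 1 and 2 as points joined by a line. The dashed line is the median over all genes with a summit in both libraries. The mean of 9 genes lies left of it for SAP30, with MXD3, MAX and MNT under 1% in both libraries, and MGA has a single SAP30 point.

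Sequence around the SAP30 summits is shown for MXD3, MAX and MNT because they ranked best, and for MXD4 because its mean rank, 10.6%, was the worst of the genes found in both libraries. Each run is the reference sequence of GRCh37 on the strand of the gene, 5′ to 3′, inside the 300 bases centred on a SAP30 summit. The run for MNT stops where its transcript begins. Capitals mark the E-box CACGTG, which is its own reverse complement, so that a search of either strand finds the same sites.
MXD3 promoter, chr5:176739127-176739426, minus strand: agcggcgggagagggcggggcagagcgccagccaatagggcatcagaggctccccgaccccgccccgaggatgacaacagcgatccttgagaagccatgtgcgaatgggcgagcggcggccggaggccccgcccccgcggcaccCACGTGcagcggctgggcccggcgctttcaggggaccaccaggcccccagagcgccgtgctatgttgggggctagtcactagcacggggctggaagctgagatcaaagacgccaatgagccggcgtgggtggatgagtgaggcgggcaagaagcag
MAX promoter, chr14:65569471-65569770, minus strand: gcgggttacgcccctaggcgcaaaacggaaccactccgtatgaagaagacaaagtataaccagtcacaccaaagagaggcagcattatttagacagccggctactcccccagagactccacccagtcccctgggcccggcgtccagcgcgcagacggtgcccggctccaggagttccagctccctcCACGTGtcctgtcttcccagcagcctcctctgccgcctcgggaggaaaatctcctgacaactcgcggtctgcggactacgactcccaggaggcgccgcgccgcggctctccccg
MNT promoter, chr17:2304399-2304559, minus strand: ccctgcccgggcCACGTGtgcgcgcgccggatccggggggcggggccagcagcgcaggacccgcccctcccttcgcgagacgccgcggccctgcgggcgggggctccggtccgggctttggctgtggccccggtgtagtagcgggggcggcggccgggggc
MXD4 intron, chr4:2263044-2263343, minus strand: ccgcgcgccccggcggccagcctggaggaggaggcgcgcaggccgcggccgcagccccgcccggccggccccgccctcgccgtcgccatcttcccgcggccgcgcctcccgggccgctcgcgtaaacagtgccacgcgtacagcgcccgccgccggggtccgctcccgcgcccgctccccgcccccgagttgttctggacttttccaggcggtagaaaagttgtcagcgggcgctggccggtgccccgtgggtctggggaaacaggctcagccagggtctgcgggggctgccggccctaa
The first 3 hold an E-box and the MXD4 run has none. At MXD3 the centre of the E-box lay 2.5 and 5.5 bp from the SAP30 summits of replicates 1 and 2. At MAX it lay 62.5 and 39.5 bp away. At MNT it lay 134.5 and 164.5 bp away, so it fell inside the window of 300 bases in replicate 1 and outside it in replicate 2.

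MXD1 and MLX had an E-box near the summit of replicate 1 alone, printed with 12 bases at each side. For MXD1 the E-box was 106.5 bp from the summit of replicate 1 and 887.5 bp from that of replicate 2, and for MLX the distances were 132.5 and 203.5 bp.
MXD1 upstream E-box, chr2:70141405-70141434, plus strand: ccccgcagcagcCACGTGgcgcctgcccta
MLX upstream E-box, chr17:40719056-40719085, plus strand: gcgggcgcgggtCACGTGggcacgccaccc
Counted over windows of 300 bases centred on the best SAP30 summit, 5 of 9 genes held an E-box in replicate 1 (MAX, MXD1, MXD3, MNT and MLX), where 11.5% of all 12605 gene windows did. In replicate 2 the count was 2 of 10 genes (MAX and MXD3), where 11.9% of 12521 did. Around the start site itself, 2 of 10 genes held one, MAX and MLX, against 7.69% of all genes. No E-box lay within 1000 bp of the SAP30 summit of MYC in either library, the nearest being 3068.5 and 3108.5 bp away, and the letters say nothing of which factors bind there.

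Across all promoters the share of SAP30 windows with an E-box followed the SAP30 rank. In replicate 1, 31.5% of the windows in the best decile of genes held CACGTG, then 17.5% and 12.9% in the next 2 deciles, and in the last 5 deciles the shares were between 6.66% and 7.22%. In replicate 2 the best decile had 30.4% and the last 5.99%. A pair of hexamers of the same letters in another order, CTCGAG and GACGTC, each its own reverse complement, had smaller differences between deciles. CTCGAG was found in 7.69% of the windows of the best decile and 6.74% of the last in replicate 1, and in 6.86% and 5.75% in replicate 2. GACGTC was found in 7.93% and 4.84% in replicate 1, and in 7.34% and 4.47% in replicate 2, so it was also more frequent in the best decile. SIN3A windows showed the same order as SAP30, with 30.5% and 33.5% in the best decile and 8.38% and 7.91% in the last for replicates 1 and 2. SIN3B windows differed less, with 14.3% and 11.7% in the best decile and 6.68% and 7.11% in the last. Windows at H3K4me3 summits did not show this order, with 2.94% and 3.63% in the best decile and 3.55% and 3.32% in the last. MXD3, MAX, MNT and MXD1 lay in the best decile of SAP30 windows in replicate 1, and MLXIP lay there without an E-box. In replicate 2 MXD3, MAX and MNT lay in the best decile, MNT without an E-box in its window. MXD1 and MLXIP were then in decile 2, both without an E-box in the window. Genes that share a promoter were counted for each gene, and no test was made over genes.

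**Figure D2:**
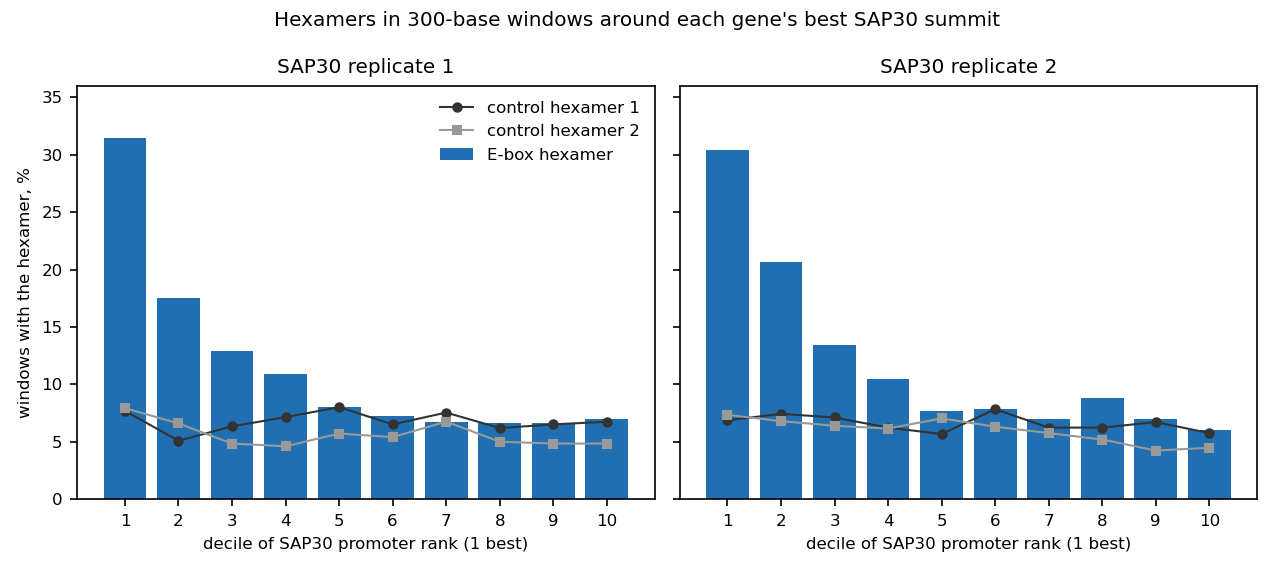
Share of 300-base windows around the best SAP30 promoter summit that hold the E-box (bars, in percent, from 0), by decile of SAP30 rank with 1 the best, for SAP30 replicates 1 and 2. Lines with points give the pair of control hexamers of the same letters, and the E-box bars fall from 31.5% and 30.4% in the best decile to 6.98% and 5.99% in the last, while the controls lie between 4.23% and 8.01%, with 1 of them falling from 7.93% and 7.34% to 4.84% and 4.47%.

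MNT and MAX, among the leading genes for SAP30, also led for SIN3A, while MXD3 did not. MNT had the best SIN3A rank, 0.540% and 0.387%, at position 44 of 6320 genes. MAX followed with 1.17% and 4.74%, then MLXIP with 6.19% and 5.25%, MYC with 6.59% and 8.29%, MXD1 with 7.97% and 7.13% and MXD3 with 5.33% and 10.1%. The range of MXD3 overlapped those of MLXIP, MYC and MXD1, while MLXIP and MYC did not overlap. MXI1 had 17.0% and 22.1%, and MXD4 6.74% and 35.2%. MGA was apart from all others, at 85.2% and 68.6%. The median over 9 genes was 7.55%, against 35.9% over all genes, and 8 of 9 genes were better than that median. For SIN3B the median over 9 genes was 21.2%, against 21.6% over all genes, and 5 of 9 genes were better than the gene median. By mean rank the best placed for SIN3B were MYC, at 10.3% and 5.16%, and MXD3, at 11.8% and 12.1%, and MGA was again the worst, at 58.7% and 58.6%. MXD3, MAX and MNT, under 1% for SAP30, stood at 5.77% to 23.1% for SIN3B.

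The SAP30 summit lay close to a SIN3A summit in every library where both were present. Distances from the best SAP30 summit to the nearest SIN3A summit of the same replicate number ran from 2 bp at MYC to 168 bp at MLX, both in replicate 1. To the nearest SIN3B summit they ran from 27 bp at MLX to 1732 bp at MYC. Over the 7 genes with all 3 proteins, the median distance was 54 bp to SIN3A and 390 bp to SIN3B in replicate 1, and 51 bp and 167 bp in replicate 2. Over all 6064 genes with the 3 proteins it was 60 bp and 114 bp in replicate 1, and 58 bp and 108 bp in replicate 2. The SIN3A summit was the nearer in 100% of the 7 genes in replicate 1 and in 71.4% in replicate 2, against 64.7% and 63.9% of all genes. Over genes with the 3 proteins in the best SAP30 decile, the medians were 39 bp and 87 bp in replicate 1, and 34 bp and 77.5 bp in replicate 2. More summits at a promoter shorten a nearest distance by construction. More than 1 SIN3A promoter summit was found at 8 members in each library, against 2 and 3 members for SIN3B. Genes are not replicates, and no test was made of these distances.

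Several SIN3A summits fell in single promoters of the network. MYC had 6 SIN3A promoter summits in replicate 1 and 10 in replicate 2, a number that 0.116% and 0.0264% of the genes with a SIN3A promoter summit reached. It had 1 SAP30 summit in each library. MXI1 had 6 and 5 SIN3A summits and MNT had 4 and 4. The mean over the genes with a SIN3A promoter summit was 1.48 in either library. More than 1 SIN3A promoter summit was found at 8 of 10 genes in each library, and MLX had none in replicate 2. Of all genes with a SIN3A promoter summit in the library, 36.1% and 35.4% had more than 1. MYC and MXI1 have many annotated start sites, 12 and 23, so their windows cover more sequence than that of MXD4 with 1. For SAP30, 1 gene, MXI1, had more than 1 promoter summit in each library, and MGA had none in replicate 1. Of all genes with a SAP30 promoter summit in the library, 16.8% and 26.1% had more than 1.

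**Figure D3:**
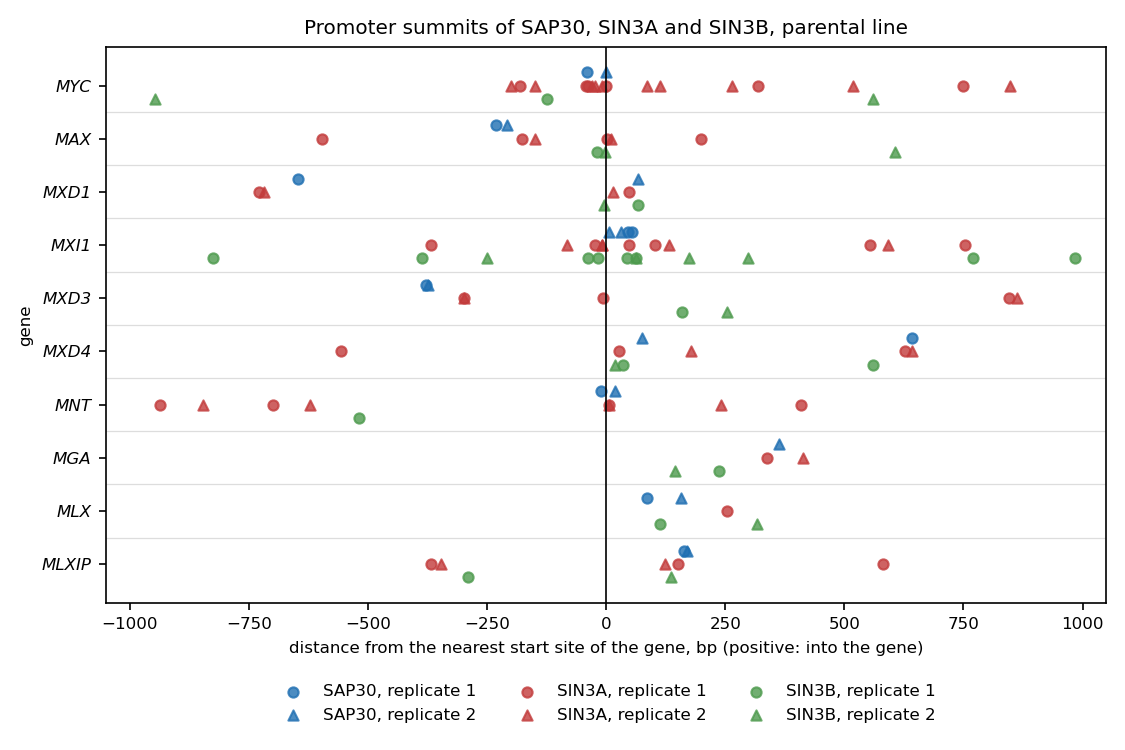
Promoter summits of SAP30, SIN3A and SIN3B in parental cells by distance from the nearest start site of the gene in bp, positive into the gene, with circles for replicate 1 and triangles for replicate 2. MXD3 and MAX have their SAP30 summits upstream of the start site in both libraries, MYC has 16 SIN3A summits over both libraries against 2 of SAP30, and the SAP30 points of MXD1 and MXD4 lie at different places in the replicates.

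Where the SAP30 summit fell differed between genes. At MXD3, on chromosome 5 from 176728462 to 176739758 of GRCh37 on the minus strand, it was 378 and 375 bp upstream of the nearest start site, outside the MANE Select transcript (the reference transcript chosen for a gene) and inside an intron of a longer one. At MAX, on chromosome 14 from 65472892 to 65569413 on the minus strand, it was 208 and 231 bp upstream, outside the transcripts, and at MNT, on chromosome 17 from 2287367 to 2304398 on the minus strand, it was within 18 bp of the start. At MLXIP, on chromosome 12 from 122516628 to 122631894 on the plus strand, it lay 163 and 169 bp from the start site, in a coding exon. MYC, on chromosome 8, had it 52 and 12 bp upstream of the start of its MANE Select transcript. Replicates disagreed for 3 genes. MXD1, on chromosome 2, had its best summit 647 bp upstream in replicate 1 and 66 bp downstream, in the 5′ UTR, in replicate 2, which were 781 bp apart. MXD4, on chromosome 4, had it 642 bp into the gene, in an intron, in replicate 1 and 76 bp into the gene in replicate 2. MXI1, on chromosome 10 from 111967363 to 112047123 on the plus strand, had it at start sites 18519 bp apart.

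The start sites of MXI1, another MAX-binding repressor, form 3 groups: an upstream site, a second site at 111969989 and 21 downstream sites. SAP30 was present upstream, at 10.1% and 3.54%, and downstream, at 8.82% and 5.40%, ranges that overlapped, and had no summit at the second site. SIN3A was at 38.4% and 22.1% upstream, at 17.0% and 23.9% at the second site and at 20.6% and 73.4% downstream. SIN3B was at 20.6% and 27.9%, at 14.5% and 37.8% and at 58.7% and 70.6% in the same order. Pol II had a summit in both parental libraries at the second site alone, at 74.1% and 74.5%. H3K4me3 in parental cells was better ranked downstream, at 10.5% and 9.93%, than upstream, at 38.2% and 44.5%. The second site had no H3K4me3 summit. H3K9Ac was at 11.8% and 19.6% at the second site and at 21.2% and 21.8% downstream, and upstream it was present in replicate 1 alone, at 27.5%.

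MGA, whose protein works with Polycomb group proteins, was the member that stood apart from the others. Its start-site window ranked last of the genes present for SAP30, SIN3A and SIN3B, and its H3K4me3, at 48.8% and 50.05%, and H3K9Ac, at 24.2% and 25.8%, were also the worst of the 10. A better-ranked SAP30 summit lay 1508 and 1520 bp into the gene, in an intron, on chromosome 15 where the gene spans 41913332 to 42065279 on the plus strand, at 13.6% and 6.19%. That site had a SIN3A summit in 2 of 2 libraries and a SIN3B summit in 2 of 2, and no H3K4me3 summit in any of 4.

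The active marks did not follow the order of SAP30. Pol II was led by MYC, at 0.415% and 0.417%, position 67 of 11591 genes, and MLXIP, at 1.69% and 1.13%, position 275. MXI1 was last, at 74.1% and 55.1%. The member median for Pol II was 24.5%, against 25.5% over all genes. MAX led H3K4me3 at 0.143% and 2.47%, position 80 of 12821, and MXD3, MXD4 and MNT were close to the gene median of 23.7% for this mark at 20.7%, 20.8% and 19.0%. H3K9Ac was led by MLX, at 3.61% and 2.71%. The medians of the members were 19.8% for H3K4me3 and 10.0% for H3K9Ac, against 23.7% and 12.2% over all genes.

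Beyond the start sites, the bodies of the genes and 50 kb on each side held few SIN3A summits away from promoters. Summits more than 1000 bp from any annotated start site numbered 31 and 33 for SAP30 in replicates 1 and 2, 6 and 6 for SIN3A, 19 and 18 for SIN3B and 58 and 54 for H3K9Ac. All 6 of SIN3A in each library lay inside a gene body, and none in the flanks, while SAP30 had 19 and 20 in the flanks. MNT held 4 and 5 of the SIN3A summits. A SAP30 site 8346 bp into MNT had ranks of 6.66% and 4.37% with SIN3A and SIN3B summits in 2 of 2 libraries each, and another lay 4540 bp into the gene at 26.7% and 26.9%. A SAP30 site 1191 bp upstream of MYC ranked at 46.5% and 40.4% and was nearer to the start of CASC11, a long noncoding RNA gene, at 271 bp. The promoter of PRELID1, at 2.88% and 5.58%, next to MXD3, and that of TSR1, at 2.43% and 3.89%, in the flank of MNT, held SAP30 sites of other genes. These counts depend on gene length and neighbours, and no comparison with other genes was made. They also depend on the length of each list. The SIN3A lists held 11115 and 10861 summits in all, and those of SAP30 held 35001 and 35007. For SIN3B the lists held 26307 and 22298, and for H3K9Ac 54622 and 53651. The counts of different targets were not adjusted for this.

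Between parental and SAP30-KO1 cells the largest differences in promoter rank were 15.5 percentage points at MXI1 and 12.9 at MGA for H3K4me3 and -12.7 at MXD4 for Pol II. Without SAP30-KO1 replicate 1 the value at MXI1 was 9.74, below 15.2 at MAX and 11.3 at MGA. The libraries of the lines overlapped at MXD1, MXD3 and MNT in all 3 marks. The comparison asked whether the promoter rank of Pol II, H3K4me3 or H3K9Ac differed between the lines. A gene was called when both SAP30-KO1 libraries lay on the same side of both parental libraries, and the two-sided exact permutation test of 2 against 2 libraries gives 0.33 at the smallest, so no gene could reach significance. A call is a description of these 4 libraries. The median difference, SAP30-KO1 minus parental, was 0.24 percentage points for Pol II over 9 genes, against 1.48 over 10703 genes with a summit in all 4 libraries. It was -1.52 for H3K4me3 over 10 genes, against 2.09 over 12527 genes, and -0.163 for H3K9Ac over 10 genes, against 0.31 over 12044 genes. A positive difference is a worse rank in the knockout. None of these medians kept its sign when each library was left out in turn. Without parental replicate 2 the median was -1.70 for Pol II, which was also below 0, at -0.358, with ranks among genes. Without parental replicate 1 it was 2.20 for H3K4me3, and for H3K9Ac it was 1.33 without parental replicate 2 and 1.27 without SAP30-KO1 replicate 2.

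For Pol II, 2 of 9 members ranked worse in both knockout libraries, MYC and MLXIP, where 24.2% of all genes did, and 1, MXD4, ranked better, where 15.4% did. MYC stood at 0.415% and 0.417% in parental cells and at 0.563% and 0.750% in SAP30-KO1, so all 4 libraries stayed within the best 1% of summits. MLXIP stood at 1.69% and 1.13% against 3.03% and 4.78%. Without SAP30-KO1 replicate 2 the difference fell from 0.241 to 0.147 points at MYC and from 2.49 to 1.62 at MLXIP. MXD4 had the largest difference, from 21.4% and 19.9% to 6.50% and 9.51%, and its best Pol II summit was 476 to 501 bp upstream of the start site in all 4 libraries. In the other 6 genes the lines overlapped, with differences from -3.64 at MAX to 7.79 at MXD3. MLX was not compared because 1 knockout library lacked its summit. The number of Pol II promoter summits at MYC was 2 and 1 in parental and 6 and 4 in SAP30-KO1. Of the genes with a Pol II promoter summit in a library, 25.6% and 23.9% had more than 1 in parental. In SAP30-KO1 these shares were 42.8% and 45.9%.

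For H3K4me3, 4 of 10 members ranked worse in the knockout, MAX, MXI1, MGA and MLX, where 28.1% of all genes did, and 1, MXD4, ranked better, where 11.5% did. MAX went from 0.143% and 2.47% to 6.79% and 16.5%. MXI1 went from 10.5% and 9.93% to 31.4% and 19.95%, a difference of 15.5 points that 96.5% of genes did not exceed. At the upstream start site of MXI1 the ranks were 38.2% and 44.5% in parental and 39.3% and 32.5% in the knockout, which overlapped, so the difference was seen at the downstream start sites. MGA went from 48.8% and 50.05% to 64.0% and 60.8%, and MLX from 23.2% and 23.8% to 30.5% and 31.4%. MXD4 went from 12.6% and 29.0% to 11.3% and 9.67%, with wide replicates in the parental line. The differences at MAX and MXD4 depended on single libraries. That of MAX was 10.4 with all libraries and 5.49 without SAP30-KO1 replicate 2, and that of MXD4 was -10.3 with all, -2.07 without parental replicate 2 and -18.5 without parental replicate 1. The remaining 5 genes overlapped.

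**Figure D4:**
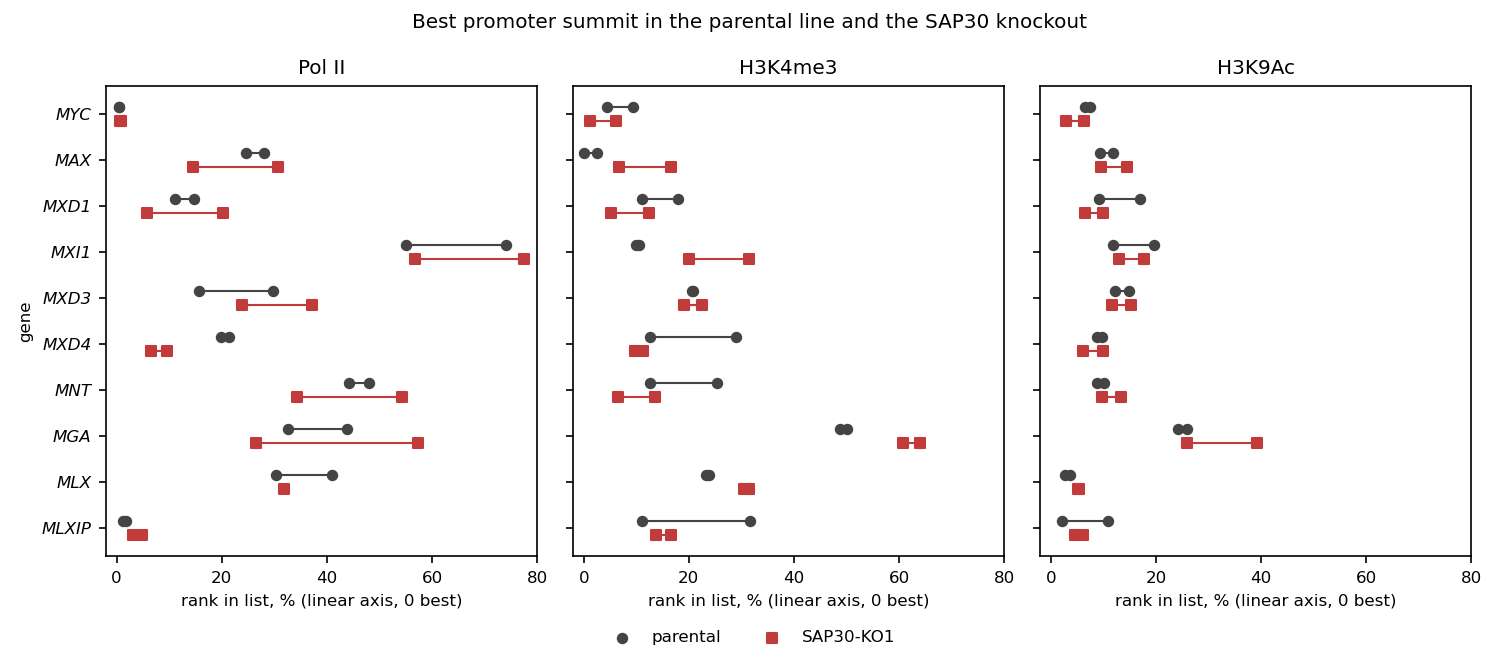
Rank of the best promoter summit in the 2 parental libraries (circles) and the 2 SAP30-KO1 libraries (squares), in percent of the list on a linear axis (0% best), for Pol II, H3K4me3 and H3K9Ac. The lines do not overlap for MXD4 in Pol II, for MAX, MXI1, MGA, MLX and MXD4 in H3K4me3, and for MGA and MLX in H3K9Ac, and the smaller shifts of MYC and MLXIP in Pol II and MYC in H3K9Ac are hard to see at this scale.

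For H3K9Ac, 2 of 10 members ranked worse, MGA and MLX, where 22.1% of all genes did, and 1, MYC, ranked better, where 16.4% did. MGA went from 24.2% and 25.8% to 39.1% and 25.9%, and replicate 2 of the knockout was close to the parental libraries. Its difference of 7.53 points was 0.915 without SAP30-KO1 replicate 1 and 14.1 without replicate 2. MLX went from 3.61% and 2.71% to 5.18% and 5.33%. MYC went from 7.53% and 6.49% to 2.86% and 6.29%, a difference of -2.44 that was -0.721 without SAP30-KO1 replicate 1 and -4.15 without replicate 2. The members' counts were close to these shares of all genes in each mark. MGA and MLX were worse in both histone marks, and MYC was worse for Pol II and better for H3K9Ac.

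No member lost or gained a promoter summit in both libraries of a line. The shares of all genes were 2.21% lost and 0.221% gained for Pol II, 1.4% and 0.16% for H3K4me3, and 0.653% and 0.507% for H3K9Ac. Genes within 5 Mb of each member were set beside its value, since a rank can move with a whole stretch of a chromosome. Around MXI1 the median H3K4me3 difference was -2.05 over 23 genes, and around MGA it was 2.55 over 91, around MAX 4.002 over 52 and around MLX 4.07 over 140. Around MXD4 it was -1.14 over 59 genes for H3K4me3, 0.13 over 57 for Pol II and -2.21 over 58 for H3K9Ac, where 43.1% of these genes ranked better. The part of the surroundings in these differences was not tested.

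The wider pathway was described with 61 further genes in 6 lists. Genes activated by MYC, such as NPM1 and NCL of the nucleolus, ODC1 and SRM of polyamine synthesis and CAD of pyrimidine synthesis, had SAP30 in both libraries at 19 of 21 genes, with a median rank of 3.69%, and SIN3A at 16 with a median of 5.41%. NPM1 had SAP30 at 0.156% and 0.463%, SRM at 0.529% and 0.527%, and ODC1 at 0.691% and 2.13%. Of their 19 SAP30 windows, 15 held an E-box in each library, 78.9%, where 11.5% and 11.9% of all windows did. The list was drawn up from genes known as MYC targets, many of which were found through this element. SIN3B at these genes had a median of 16.5%. MYC cofactors and turnover genes had SAP30 at 16 of 16 genes with a median of 11.4%, and the partners of MGA at 15 of 15 with a median of 19.1%. KAT5, an acetyltransferase of the MYC cofactors, had SIN3B at 1.34% and 0.262% and no SIN3A summit. Among the genes repressed by MYC, 4 of 5 had SAP30 in both libraries, and both targets of MondoA and MLX did, with medians of 9.68% and 27.3%. Of the network genes outside the 10, MYCL had SAP30 in both libraries at 31.7% and 66.8%, and MYCN had no promoter summit of any parental target.

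In SAP30-KO1 the counts over the 61 genes were near the shares of all genes given above. For Pol II, 14 of 53 ranked worse and 5 better, for H3K4me3 16 of 57 worse and 8 better, and for H3K9Ac 14 of 56 worse and 7 better, and none was lost or gained. The medians were 0.62, 2.31 and 0.21 points. For Pol II the largest differences were 27.7 points at KAT5, 23.6 at EP400, both of an acetyltransferase complex, and 21.2 at YAF2, of the Polycomb partners of MGA, in the worse direction. In the better direction they included -15.2 at SHMT2 and -9.49 at SRM. For H3K4me3 they were 16.0 at USP28, 14.9 at TERT and 13.2 at HDAC2, and -16.4 at NDRG1, -13.5 at ACTL6A and -12.5 at NPM1. For H3K9Ac they were 14.4 at PPAT, 13.3 at HDAC1 and 7.10 at USP28, and -6.61 at ZBTB17, -5.88 at EP400 and -5.45 at RUVBL1. HDAC1 and HDAC2, the deacetylases of the SIN3 complex, went from 5.78% and 5.66% to 19.0% and 18.9% for H3K9Ac, and from 4.78% and 2.18% to 15.3% and 18.1% for H3K4me3, respectively.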

How the data were processed

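ChIP-seq libraries of 9 groups, with 2 libraries each, were used of 30 samples, and 12 samples of input or of total histone H3 are not analysed here. The authors deposited for each library a list of MACS2 peak summits 1 bp wide on hg19, called per library and not on pooled replicates, and the score of each is the −log10 of its q-value. The submitters' processing notes name FastQC 0.11.2, Bowtie2 2.3.3.1, Picard and MACS2 2.1.0. Their options and the filters are not given in the sources used here, nor is the control against which each list was called. The labels name inputs for SAP30 and SIN3A together and separate inputs for SIN3B. A contrast of SIN3A with SIN3B therefore cannot be told apart from a difference between these sets of libraries. Depth is unknown, so no interval was computed.

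Groups were taken from the labels. Those of the SAP30, SIN3A and SIN3B libraries name MDA-MB-231 and no knockout, and these libraries were taken as parental. Start sites were those of basic transcripts in GENCODE release 44 lifted to GRCh37, the build of the files, and sequence came from the GRCh37 assembly. Promoter ranks were computed with pandas 2.3.3 and numpy 2.4.6 under Python 3.11.15 and tested on simulated lists. A summit was lost when both parental libraries had it and no SAP30-KO1 library did. It was gained when the opposite held. Windows for the E-box were 300 bases wide, centred on the MANE Select start (otherwise the most upstream basic start) or on a summit. Alternatives were promoter windows of 500 and 3000 bp, all transcripts, better-ranked or equal-length lists, ranks among genes, other flanks, the replicate number as a block and each library left out.

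The members, lists and tests were chosen with earlier results of these data known. The text names all 10 members and, per mark, up to 3 list genes with the largest difference in each direction among those that did not overlap, of which 1 is not reported here. The 2 control hexamers, the deciles of SAP30 rank, the genes within 5 Mb, the start sites of MXI1 and the list genes named for their SAP30 or SIN3B ranks were added after the data were seen.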

Additional observations from a re-analysis of the deposited data

How the results depend on the processing

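Medians of the member ranks, which are percentages of a list, moved by less than the spread of the replicates with other windows, other transcripts or the better-ranked 50% of the lists. For SIN3B the median was 24.8% with 500 bp and 18.9% with 3000 bp or all transcripts, on either side of the main gene median of 21.6%. With lists cut to the length of the shortest, 10861 summits, the median was 10.2% for SAP30, 33.0% for SIN3B, 46.5% for Pol II, 47.3% for H3K9Ac and 40.1% for H3K4me3. With ranks among genes it was 10.1%, 48.2%, 47.4%, 41.6% and 39.4%, and 11.7% for SIN3A. These settings drop low-ranked summits or keep 1 summit per gene, which by construction raises percentages in the longer lists. Leaving out a replicate gave medians of 2.23% to 3.74% for SAP30, 24.7% to 27.2% for Pol II and 15.3% to 15.8% for H3K4me3. The counts of called members changed as follows. For H3K9Ac, 1 ranked worse and 2 better both with a window of 500 bp and with lists of equal length. The shares of all genes under the main settings were 22.1% worse and 16.4% better. MGA was not called in either, and it had no summit within 500 bp in parental replicate 1. The same replicate numbers gave a correlation of deviations of 0.0075 in Pol II, -0.019 in H3K4me3 and -0.014 in H3K9Ac, and the labels do not say what a number shares. With the replicate number as a block, 3 members were better for H3K4me3 (17.1% of all genes) and 2 for H3K9Ac (23.5%), and the other counts were within 1.5 times. Leaving out any of the 4 libraries of a mark makes a call easier by construction. The counts then ranged from 3 to 6 worse and from 1 to 4 better for Pol II, most worse without SAP30-KO1 replicate 2 (40% of all genes) and most better without SAP30-KO1 replicate 1 (30.6% of all genes). They ranged from 2 to 4 better for H3K4me3 (19.3% to 29.2% of all genes), and for H3K9Ac from 3 to 5 worse (35.1% to 40.2%) and from 2 to 3 better (29.2% to 34%). Pol II losses ranged from 0 to 1, the latter at MLX without SAP30-KO1 replicate 1. Of 118 values of the called members under the alternatives, 117 kept their direction and their call and 1 kept its direction alone. A call made with all 4 libraries must hold when 1 library is left out and with the replicate number as a block. Those values kept direction and call by construction, and they say nothing of how stable a call is. MGA has no value, and so no call, with 500 bp for either histone mark or with the better-ranked 50% for H3K4me3, and these are not in that count. Distal summits, which average 32 for SAP30, 6 for SIN3A, 18.5 for SIN3B and 56 for H3K9Ac, were 22, 16 and 43.5 for SAP30, SIN3B and H3K9Ac with flanks of 25 kb. They were 53.5, 8, 29.5 and 82 for the 4 targets with flanks of 100 kb, and 12.5, 4.5, 5 and 25.5 with the better-ranked 50% of the lists. An E-box lay in the window of 1000 bases around the start site of 6 members, against 18.2% of all genes. Summits below the deposited threshold are not in the lists, so an absent summit is not absent binding.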
